A study of Mus musculus with 3 samples.

Results

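The gene Mir375 encodes the hairpin of miR-375, and the reads described here are all small RNA-seq reads whose 5′-start lay in that hairpin, on the minus strand of chromosome 1. They summed to 3199788, 3990075 and 3914006 of the 9269795, 10816006 and 10218743 mapped reads of MIN6 replicates 1, 2 and 3, that is, 34.5%, 36.9% and 38.3% of each library. In alignments, the hairpin took 1666 of 1007929, 1825 of 1095335 and 1818 of 1036409, so very few distinct alignments carried this large share. MIN6 is an established mouse cell line that came from a pancreatic beta cell tumor and still secretes insulin, and no genotype or agent was compared. The 3 libraries are biological replicates of cells cultured in medium with 25 mM glucose and 10% heat-inactivated fetal bovine serum. There was 1 condition and no control, so the comparisons are between reads of the same hairpin and with other miRNAs of the same libraries.

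A miRNA hairpin is cut from a longer transcript by Drosha and then by Dicer, which leaves a duplex of a 5p and a 3p strand, and one strand is usually kept by an Argonaute protein while the other is degraded. The bases next to the 5′-end, the seed, pair with target RNAs, so a read that starts 1 base earlier or later (a 5′-shifted isomiR) carries another seed. At the 3′-end, bases can be lost by trimming or added without a template, for example by terminal uridylyltransferases, which add U. miR-375 is enriched in pancreatic endocrine cells, where it restrains insulin secretion, with Mtpn as a known target, and is needed to form a normal beta cell mass.

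The hairpin sequence from RefSeq (GRCm38.p6) was laid on the deposited alignments, whose notes name the build mm9, and it covered chr1:74947232-74947295 there, with the 3p read of the reference start in capitals. The 4 starts of the 3p arm with the most reads are shown up to the same 3′-end, with the seed (bases 2 to 8) in capitals, because each has another seed.
Mir375 hairpin: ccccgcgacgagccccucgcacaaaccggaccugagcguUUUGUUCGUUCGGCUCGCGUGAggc
miR-375-1: uUUUGUUCguucggcucgcguga
miR-375: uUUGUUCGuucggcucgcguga
miR-375+1: uUGUUCGUucggcucgcguga
miR-375+2: uGUUCGUUcggcucgcguga
The reference miR-375 began at position 74947256, which is base 40 of the hairpin of 64 bases. The recorded mismatches fixed the genomic base at all 22 positions of the 3p read, and the hairpin was placed where its letters equal these bases. In all, 0 reads conflicted with the RefSeq letters, which the placement itself ensures for these 22 bases at the reference start. On GRCm38.p6 no other gene of the annotation overlapped Mir375, and its nearest neighbours were Cryba2, 1815 bp away on one side, and Cfap65, 1349 bp away on the other. The RefSeq table gave the 5p strand a mature entry of 22 bases, at bases 5 to 26 of the hairpin.

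Nearly every read came from the 3p arm. The 3p arm (starts within 5 bases of the reference start) held 3199664, 3989926 and 3913874 reads, or 99.996%, 99.996% and 99.997% of the hairpin reads. The passenger strand, the 5p arm (starts at least 24 bases before the reference start), held 76, 92 and 71 reads. Its share was 0.00238% (95% Wilson interval 0.0019 to 0.00297), 0.00231% (0.00188 to 0.00283) and 0.00181% (0.00144 to 0.00229), so the intervals of the 3 libraries overlapped. There were 42101, 43369 and 55125 3p reads for each 5p read. Expression of the 5p arm was thus 7.88 ± 0.825 RPM (RPM, the reads scaled to the mapped reads of the library; SD, n = 3), against 365690 ± 19121 RPM for the 3p arm. The intervals cover counting error only, as the reads carry no molecular identifiers.

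**Figure D1:**
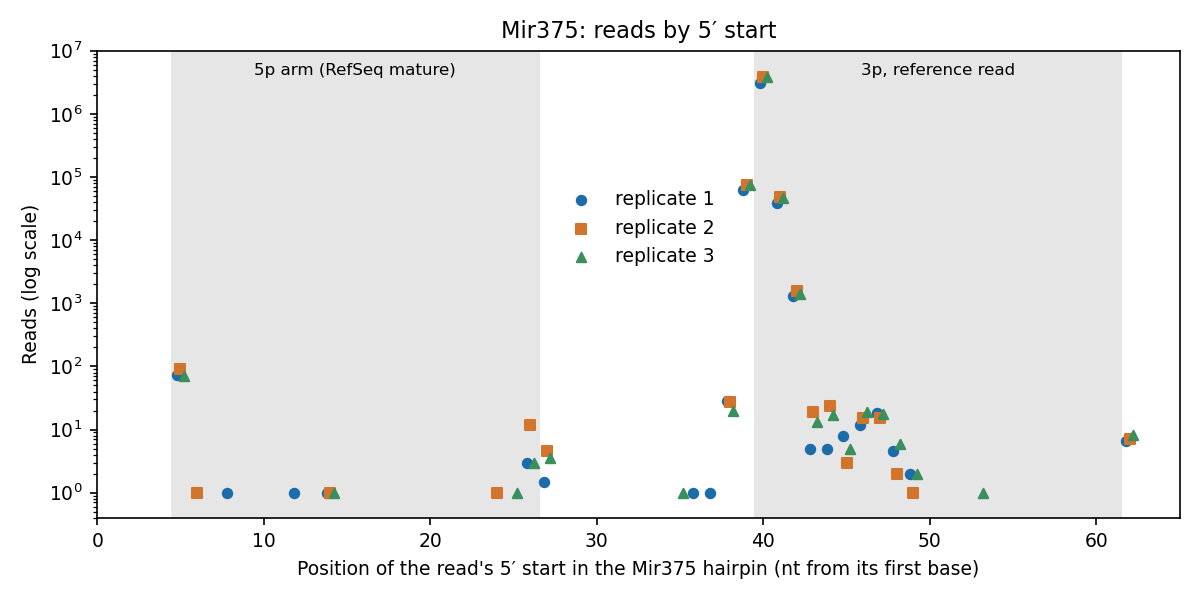
Reads (log scale) by the position of their 5′-start in the Mir375 hairpin, counted in nt from its first base; each point is 1 start in 1 library, and the shaded spans are the RefSeq 5p strand and the reference 3p read. In every library the start at base 40 holds about 97% of the reads, the starts beside it form a ladder, and the 5p arm has a single main start of 70 to 90 reads.

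The few passenger reads were precise at their 5′-end. The start at position 74947291, base 5 of the hairpin and also the first base of the RefSeq 5p strand, had 73, 90 and 70 reads, and every other 5p start had at most 1 read in any library. The most frequent length was 23 nt, with 45, 55 and 52 reads, and 22 nt, the length of the RefSeq entry, had 11, 19 and 8 reads. The usual 5p read therefore ended 1 base beyond the RefSeq strand, shown in capitals in the first line below. Reads of 34 to 36 nt from the same start (7, 4 and 3 reads) ran through the loop to the bases around the start of the 3p arm. The 35-nt read, with the bases beyond the usual 5p read in capitals, stopped at hairpin base 39, directly before the reference 3p start.
5p read of 23 nt: gcgacgagccccucgcacaaacC
5p read of 35 nt: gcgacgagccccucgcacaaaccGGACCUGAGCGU
The 35-nt reads numbered 5, 0 and 2, and the 36-nt reads, which ended at base 40, numbered 1, 2 and 1. These counts are near the 3 reads that a count of 0 allows, so no difference between libraries was detectable at this depth.

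Reads starting 6 to 23 bases before the reference start, a class set by distance alone, numbered 4.5, 17.5 and 7.5. All of them began at bases 24 to 27 of the hairpin, within the last bases of the usual 5p read. They thus began before the loop (bases 28 to 39) and not in it. Their mean share was 0.000257%, and 0.000166% without replicate 2. Fractions occur because the authors divided reads with several equally good loci among them. Most of these began at bases 26 and 27 of the hairpin and ended at base 40 or 41, at 14 to 16 nt. Starts from 6 bases inside the 3p strand onward held 43, 40 and 53.8 reads, or 0.00134%, 0.001% and 0.00137%. The largest of them, at bases 46 and 47, had 12 to 19 reads per library and mostly ended at base 61, the 3′-end of the reference read. One further start lay at base 62, the first base behind the 3p read, with 6.5, 7 and 8.13 reads. Its reads were 14 to 38 nt long and ran beyond the RefSeq hairpin.

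On the 3p arm the start was more spread than in most abundant miRNAs. The reference start held 3098658, 3865657 and 3791816 reads, or 96.8%, 96.9% and 96.9% of the 3p-arm reads. miR-375-1 followed with 61254, 74743 and 73889 reads, miR-375+1 with 38395, 47913 and 46696, and miR-375+2 with 1309, 1539 and 1417. The starts beyond these had few reads, 5, 19 and 13 at +3 and 28, 27 and 20 at -2. As shares of the hairpin reads, miR-375-1 took 1.89% ± 0.0208, miR-375+1 1.2% ± 0.00426 and miR-375+2 0.0386% ± 0.00235 (SD, n = 3). The share at miR-375+2 was 0.0409%, 0.0386% and 0.0362%, and the other shares differed even less between libraries in relative terms.

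For comparison, 43 other main 5′-starts with at least 10000 reads in each library could be matched to RefSeq hairpins, covering 37 differently named strands. Genomic copies of the same strand count as separate starts here and below, although reads that fit both were divided between them. Within 5 bases of these starts, a median of 99.5% of reads began at the main start, and 38 of the 43 were more precise than miR-375 at 96.9%. The least precise was miR-183-5p, at 71.9%. The matched starts included miR-182-5p, at 35746 to 39609 RPM, and miR-183-5p, at 4168 to 4811 RPM, both beta cell and endocrine markers. Of the markers of acinar, muscle and blood cells that the RefSeq table lists (miR-216a-5p, miR-217-5p, miR-206-3p, miR-142a-3p, miR-223-3p and miR-451a), 0 were matched to a start with at least 1000 reads in each library. The endocrine marker miR-7a-5p could not be matched to 1 start either. Only 50 of the 388 starts with at least 1000 reads were matched, so a marker without a match is not shown to be absent.

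The shifted starts kept the 3′-end rather than the length. Among exact reads (without any mismatch) the most frequent length was 23 nt at miR-375-1 (95.9% ± 0.253), 22 nt at miR-375 (97.9% ± 0.284), 21 nt at miR-375+1 (97% ± 0.455) and 20 nt at miR-375+2 (89.1% ± 3.76; SD, n = 3), so that all of them ended at base 22 of the reference read. The mean length of exact reads was 22.94, 22.93 and 22.93 nt at miR-375-1 and 21.97, 21.96 and 21.96 nt at miR-375. The difference was 0.972 ± 0.00244 nt (SD, n = 3), longer in 3 of 3 libraries. At miR-375+1 exact reads were shorter in 3 of 3 libraries, with a difference of -1.02 ± 0.00597 nt. For both differences the exact sign-flip permutation test (two-sided) gave p = 0.25, the smallest value that 3 libraries allow, so the test cannot pass a threshold of 0.05 in this design. Extension by a templated base was rare, since exact reads of 23 nt at the reference start made up only 0.0131% ± 0.000464 (321, 369 and 382 reads).

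**Figure D2:**
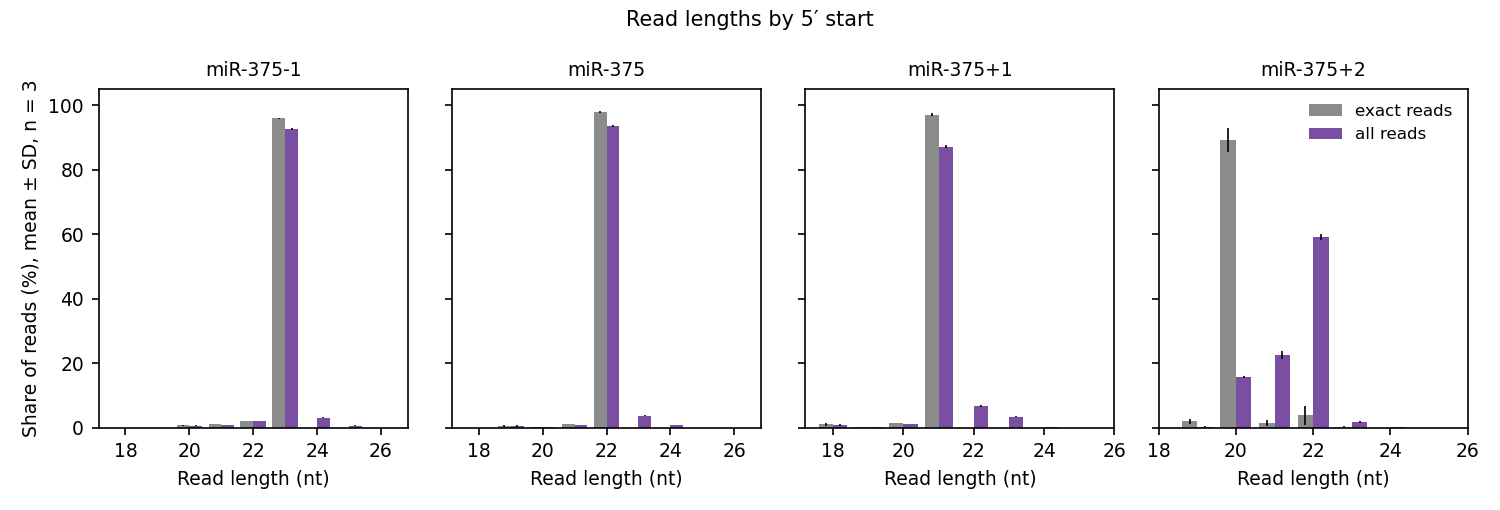
Read lengths (nt) at the 4 main 3p starts as a share of the reads of each start (%), for exact reads and for all reads; bars are means and error bars SD over 3 libraries. Exact reads shift from 23 to 20 nt with the start, whereas all reads of miR-375+2 peak at 22 nt.

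Among exact reads, trimmed 3′-ends were few. At the reference start, exact reads that stopped at base 21 made up 0.808%, 0.797% and 0.805% of all reads of that start, and those that stopped at base 20 made up 0.285%, 0.263% and 0.26%. These shares hardly differed between libraries. Exact reads that stopped at base 19 did differ: they made up 0.278% in replicate 1 (8619 reads) but 0.673% and 0.67% in replicates 2 and 3 (26016 and 25406 reads). The same split was present at the shifted starts, with 0.375%, 0.684% and 0.648% at miR-375-1 and 0.419%, 1.02% and 0.994% at miR-375+1. Replicate 1 was also the library with the fewest mapped reads, and a role of depth or of library preparation in the split was not tested.

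Reads with a mismatching 3′-end depended on the 5′-start. A read was counted as tailed when its last base did not match the genome, and the tail is the run of mismatching bases at the end. At miR-375-1, tailed reads made up 21.1%, 22.1% and 21.1%. The reference start had 21.1%, 22.2% and 21.6%, and miR-375+1 had 26.2%, 28% and 27.8%. At miR-375+2 the share was far higher, at 87.2%, 87.8% and 87.6%. The share at miR-375-1 was slightly lower than at the reference start in 3 of 3 libraries, by -0.0445, -0.0799 and -0.51 percentage points (-0.211 ± 0.259, SD, n = 3). The exact sign-flip test gave p = 0.25, the smallest value that 3 libraries allow. The mean difference turned positive when a mismatch in any of the last 3 bases was counted (0.226) or the most frequent mismatch was left out (0.353). Without replicate 3 the mean difference was -0.0622. The difference of miR-375+1 from the reference start was 5.7 ± 0.564 percentage points, higher in 3 of 3 libraries, and the exact sign-flip test again gave its smallest p, 0.25.

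Most of the tails at miR-375+2 ended in U. These and a single A are shown in capitals, behind the genomic bases of each start.
miR-375 with U: uuuguucguucggcucgcgugaU
miR-375 with A: uuuguucguucggcucgcgugaA
miR-375+1 with UU: uuguucguucggcucgcgugaUU
miR-375+2 with U: uguucguucggcucgcgugaU
miR-375+2 with UU: uguucguucggcucgcgugaUU
A tail of UU was carried by 0.425%, 0.41% and 0.395% of reads at the reference start. At miR-375+1 the share was 2.66%, 2.55% and 2.36%, and at miR-375+2 it was 43.3%, 43.5% and 43.3% (567, 670 and 614 reads). The lowest value at each of these starts lay above the highest value at the start before it. At miR-375-1, where the 5′-end is longer by a base, the share was 0.38%, 0.347% and 0.299%, below the reference start in 3 of 3 libraries. A single U followed the same order on the 3′-shifted side, with 2.39% ± 0.0548 at the reference start, 5.52% ± 0.14 at miR-375+1 and 18.9% ± 0.537 at miR-375+2 (SD, n = 3). Over all reads the orders differed on the other side. A single U made up 3.4%, 3.23% and 2.92% at miR-375-1, above the 2.45%, 2.38% and 2.34% of the reference start in 3 of 3 libraries. Part of this U at miR-375-1 stood in place of the genomic A at base 22 (1.33% ± 0.118 of reads). Reads whose only mismatch was a U behind base 22 made up 1.48% ± 0.102 at miR-375-1 and 1.83% ± 0.03 at the reference start. A single C made up 0.0334% ± 0.00888 at the reference start and more at each shifted start. It made up 0.254% ± 0.0316 at miR-375-1, 1.45% ± 0.285 at miR-375+1 and 1.56% ± 0.308 at miR-375+2. At miR-375+1 and miR-375+2 most of it stood in place of the genomic A at base 22 (1.4% ± 0.304 and 1.37% ± 0.222 of reads). A single A did not follow the order of U, with 1.89% ± 0.0382 at the reference start, 1.58% ± 0.0673 at miR-375+1 and 2.16% ± 0.14 at miR-375+2. Tails of AU, CU and CUU, which likewise end in U, made up 5.15% ± 0.426, 3.24% ± 0.372 and 4.94% ± 0.861 of the reads at miR-375+2. In all, 89.4% ± 0.149 of the tails there ended in U, compared with 14.8% ± 0.642 at the reference start.

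**Figure D3:**
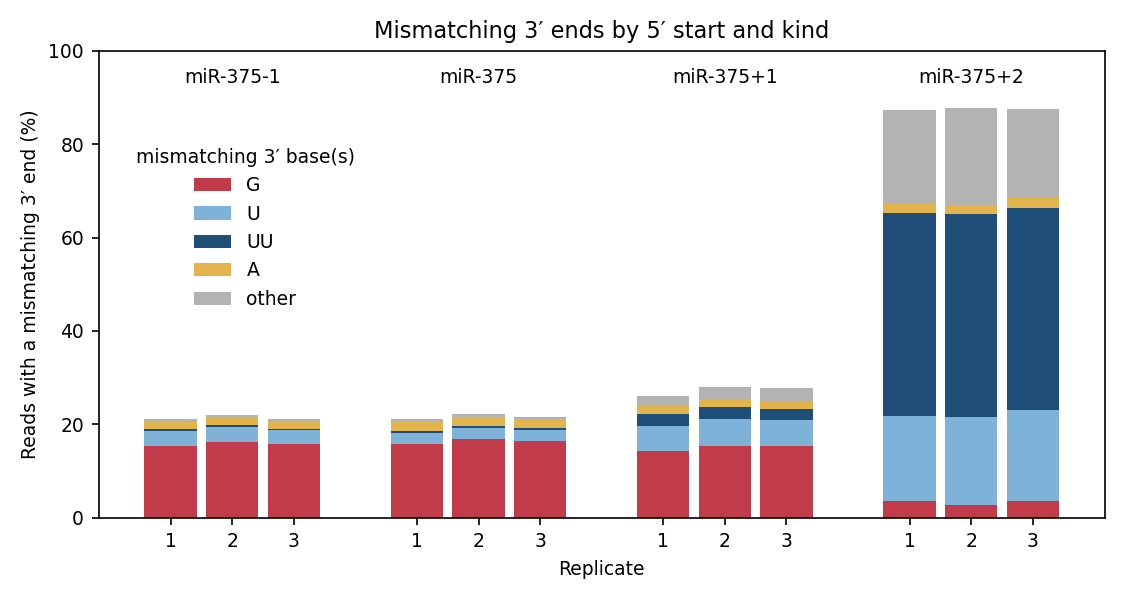
Reads with a mismatching 3′-end as a share of all reads of a start (%), stacked by the mismatching bases, for 3 replicates at each of the 4 main 3p starts. The G share is alike at miR-375-1, miR-375 and miR-375+1, and U and UU make up most of the tails at miR-375+2.

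Counted only among reads whose genomic part reached base 22, tails and UU again became more frequent from the reference start to miR-375+1 and miR-375+2. The share without a tail was 95.3% ± 0.291 at miR-375-1, 94.3% ± 0.085 at miR-375, 87.4% ± 0.387 at miR-375+1 and 13.3% ± 0.693 at miR-375+2 (SD, n = 3). A single U changed its order on the other side. It made up 1.98%, 2.02% and 1.79% at miR-375-1, below the 2.32%, 2.33% and 2.27% of the reference start in each library. A single C was most frequent at miR-375-1, with 0.272% ± 0.0394. It made up only 0.0113% ± 0.00955 at the reference start, 0.0349% ± 0.0294 at miR-375+1 and 0.172% ± 0.15 at miR-375+2. For each exact read that ended at base 22 there were 0.00521 ± 0.000158 UU-tailed reads at the reference start, 0.0363 ± 0.00197 at miR-375+1 and 4.1 ± 0.174 at miR-375+2. Because of these tails, the mean length of all reads at miR-375+2 was 21.5 ± 0.0104 nt, longer than the 21.1 ± 0.0116 nt at miR-375+1, although its genomic part was shorter. Reads of 22 nt, that is 20 genomic bases and a tail of 2 bases in most cases, made up 60%, 59.4% and 58% at miR-375+2. The alignment allowed up to 2 mismatches at the 3′-end of reads of 19 to 23 nt and up to 3 in longer reads, besides 1 elsewhere in the read, so the longest tail that could be found depended on the read length and thus on the start.

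At the +2 starts of other miRNAs such tails were rarely counted. Of the 43 compared starts, 9 had a +2 start with at least 20 reads in each library, and tailed reads there ranged from 0.619% to 38.8%, with a median of 3.83%. The 9 included both genomic copies of let-7c-5p. In 8 of the 9 the share was lower at +2 than at the main start, and the one that was higher, Mir421, differed by 4.06 percentage points, compared with 65.9 for miR-375. UU at the +2 start reached at most 0.877% among the 9. An added base that equals the next genomic base is not counted as a tail. Behind miR-375 the next bases are GG, so an added U was counted there. The genomic bases behind the compared strands were not taken into account, so their U tails may be undercounted. At the +1 start the picture was mixed, since 10 of 28 starts had more tailed reads than their main start and 18 had fewer. For miR-127-3p and miR-27b-3p the share reached 46.1% and 49.4% at +1, above the 27.3% of miR-375+1. UU alone made up 13.1% and 11.7% at their +1 starts, compared with 3.99% and 0.282% at their main starts, and was thus more frequent there than the 2.52% at miR-375+1. These comparators were described without a test, because the pattern was seen in miR-375 first.

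The largest single class of mismatching ends had G in place of the genomic A at base 22. Positions are counted from 1 at the 5′-end of the reference miR-375, and this read is printed with the changed base in capitals.
miR-375 with A22G: uuuguucguucggcucgcgugG
For every 100 exact reads ending at base 22 there were 20.5, 22.3 and 21.5 reads with A22G at the reference start. At miR-375-1 there were 20.2, 21.9 and 21.1, and at miR-375+1 19.8, 22.1 and 22.1. The ratio thus changed little with the 5′-start, unlike the U tails. At miR-375+2 it was 30.3, 25.6 and 34.5, but on 44, 41 and 50 A22G reads per library. Replicate 1 had the lowest ratio and replicate 2 the highest at both miR-375-1 and miR-375.

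Few of the compared miRNAs allowed the same count, as only 3 others had a genomic A at the end of their most frequent exact read. miR-125a-5p, at its 24-nt end, had 20.1, 22.2 and 21.3 reads with G for 100 exact reads, within 0.4 of the miR-375 value in each library. In contrast, miR-25-3p had 0.727, 0.666 and 0.613, and miR-200c-3p had 0.168, 0.156 and 0.066. In the RefSeq hairpins, miR-375 and miR-125a-5p share the last 4 bases of the read, GUGA, and a following G, whereas miR-25-3p ends in CUGA before a C and miR-200c-3p in UGGA before a G. This match was noticed after the values were seen and rests on 4 miRNAs.

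**Figure D4:**
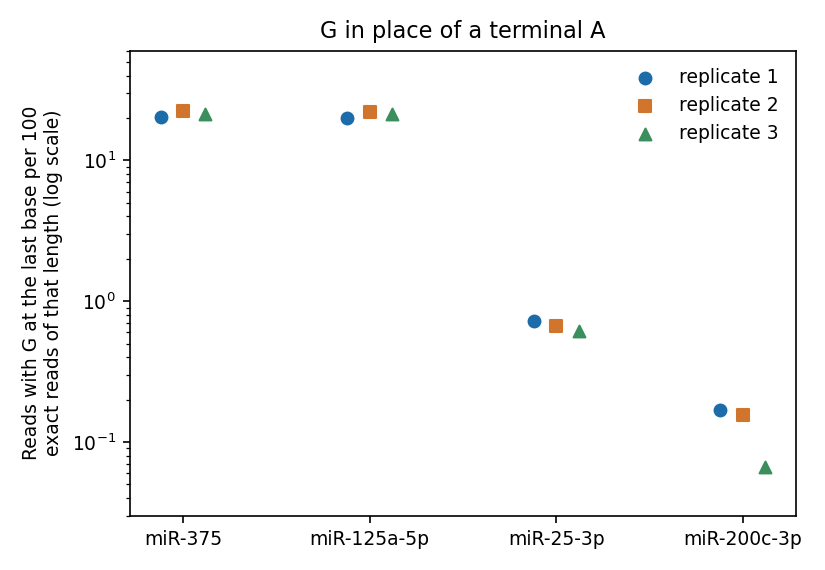
Reads with G at the last base in place of a genomic A, for each 100 exact reads of that length (log scale), for the 4 abundant miRNAs whose most frequent exact read ends in A; each point is 1 library. miR-375 and miR-125a-5p lie between 20.1 and 22.3 in all libraries, and the other two stay under 1.

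Inside the read, miR-375 had few mismatches. Reads of the reference start with a mismatch before the last 3 bases made up 2.64%, 2.52% and 2.38%, a mean of 2.51% ± 0.131 (SD, n = 3). Mismatches in the seed, uncalled bases (N) included, summed to 1.09%, 0.948% and 1.02% of reads. The most frequent substitution, C7A, lies in the seed and was carried by 0.631%, 0.485% and 0.558% of reads (19552, 18753 and 21150 reads). It is printed here beside C16A, which differed most between libraries, each with the changed base in capitals.
miR-375 with C7A: uuuguuAguucggcucgcguga
miR-375 with C16A: uuuguucguucggcuAgcguga
The substitution C11A made up 0.292%, 0.185% and 0.203%. In contrast, C16A was carried by 0.092%, 0.388% and 0.113%, so it was highest in replicate 2, and C14A by 0.217%, 0.0612% and 0.125%, highest in replicate 1. Summed over the read, C-to-A changes made up 1.25%, 1.14% and 1.02% of reads.

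The same genomic bases gave other values in the shifted reads. C7A, at base 8 of the miR-375-1 reads and base 6 of the miR-375+1 reads, made up 0.0947%, 0.102% and 0.0853% in the former and 0.0234%, 0.00417% and 0.015% (9, 2 and 7 reads) in the latter. It was thus lower than at the reference start in every library. C14A was instead higher at miR-375+1, where it is read as base 13, with 0.591%, 0.169% and 0.388%, and was again highest in replicate 1. Among the compared starts, 13 others had a C at base 7, and C-to-A there ranged from 0.382% to 2.15% with a median of 0.857%. miR-375, at 0.558%, lay near the lower end, with 12 of the 13 above it.

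Compared with the other abundant miRNAs, the share of reads with an inner mismatch was low. Its median over the 43 other starts was 12.7%, with a range from 2.22% to 29.3%, and 42 of them exceeded the 2.51% of miR-375. Bases 1 to 17 of miR-375 hold 0 A, and those of the others hold 2 to 8. At a genomic A the others had a median of 1.9% mismatching reads per position, mostly A-to-C (median 1.85%). At a genomic C, G or U, miR-375 was close to the medians of the others, with 0.335% against 0.291%, 0.0406% against 0.0397% and 0.104% against 0.0982%. The low share of miR-375 was thus found beside an absence of A and values at the other bases that were not lower. The one start below it, miR-141-3p at 2.22%, had 6 A in this stretch, with 0.204% mismatching reads per A. What produced the A-to-C mismatches of the other miRNAs was not tested.

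**Figure D5:**
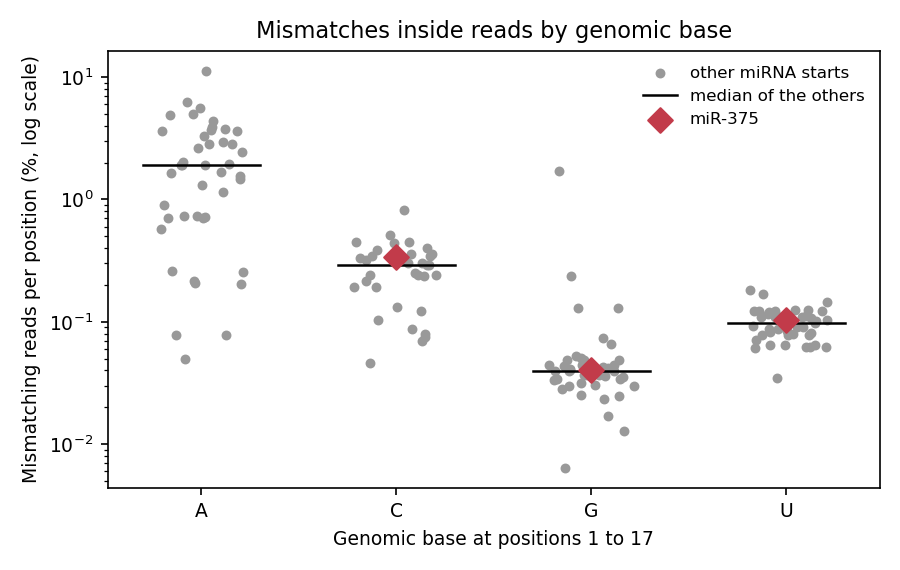
Mismatching reads per position (%, log scale, mean of 3 libraries) over bases 1 to 17, by the genomic base, for miR-375 (diamonds) and the other abundant miRNA starts (points), with the median of the others as a line. miR-375 has no A in this stretch and lies near the medians for C, G and U, at 0.335%, 0.0406% and 0.104%.

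In its length profile, the reference miR-375 was most like miR-16-5p and miR-22-3p. The distance used was the summed absolute difference between the shares of each read length, divided by 2, over the starts with at least 10000 reads in each library and averaged over 3 libraries. It was 0.026 and 0.0269 for both genomic copies of miR-16-5p and 0.0473 for miR-22-3p. Reads of 22 nt made up 96% ± 0.105 and 96.1% ± 0.103 of both miR-16-5p copies and 97.4% ± 0.128 of miR-22-3p (SD, n = 3), compared with 93.5% ± 0.2 of miR-375. A further start as close, at 0.0376, was not matched to a hairpin.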

How the data were processed

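Small RNA from 3 MIN6 cultures was sequenced with TruSeq small RNA libraries. The authors deposited, per library, alignments with expected counts: reads behind each alignment, divided among equally good loci, not normalized. They trimmed adaptors with cutadapt, mapped reads of 14 to 41 nt exactly with Bowtie (at most 20 loci), merged regions within 65 nt, extended these by 5 nt, and aligned the remaining reads there with SHRiMP2, allowing mismatches. The notes name mm9.

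Mir375 reads were summed per start, length and mismatch string with Python 3.11.15, pandas 2.3.3, numpy 2.4.6 and scipy 1.17.1, and plotted with matplotlib 3.10.9. Exact alignments end 1 base early in the files, which was corrected. RPM used all mapped reads. Scripts were tested on simulated data. Other strands were matched to RefSeq hairpins on the first 20 bases, with up to 3 bases unresolved, which matched 50 of 388 starts with at least 1000 reads. Named were starts with at least 100 reads and strings with at least 1% of their start in each library, and the starts most alike in length profile. The members, lists and comparisons were chosen with earlier results of these data known. The comparisons at the +2 start, of terminal G and of mismatches per genomic base were added after seeing the values. Over all starts, the libraries differed by more than sampling noise.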

Additional observations from a re-analysis of the deposited data

How the results depend on the processing

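Of 97 recomputed values of 15 results, 85 kept their direction or moved by less than 1 SD between libraries. Hairpin expression, 365704 RPM, was 389157 with exact alignments only, 416401 with reads of 16 to 27 nt and 436362 with whole-number values only, and each of these also changes the denominator. Starts inside the 3p strand changed from 0.00124% to 0.000561% with reads of 16 to 27 nt and to 0.00211% with the 3p arm within 2 bases. The reference start held 96.98% of exact 3p-arm reads. Without A22G, the tailed share at the reference start was 6.74% and G made up 7.55% of the last bases. The tail difference of miR-375-1 reversed to 0.226 with a mismatch in any of the last 3 bases and to 0.353 without A22G. Among reads without a mismatch outside the tail, the tailed and UU shares at miR-375+2 were 87.8% and 43.7%, an alternative chosen after seeing the data. Leaving out each replicate in turn kept every direction. With 3 replicates, the reads starting 6 to 23 bases before the reference start rest most on replicate 2. Without replicate 2 their share was 0.000166% in place of 0.000257%. A start with 0 reads allows 3 reads, or up to 0.324 RPM.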
